A study of Mus musculus with 4 samples.

Results

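The cells described here are endothelial cells of the newborn mouse kidney in which Ehd3, a gene used as a marker of glomerular endothelium, was detected. A barcode was taken when at least 3 of 8 endothelial genes were detected in it (Pecam1, Cdh5, Kdr, Emcn, Egfl7, Tie1, Flt1 and Esam) together with at least 1 UMI of Ehd3, a UMI being a unique molecular identifier that stands for 1 captured RNA molecule. Barcodes with 2 or more of 5 arterial genes (Gja5, Gja4, Sox17, Bmx and Sema3g), with 5 or more Col3a1 UMIs or with more than 1 Nphs1 UMI were left out, which removes arterial cells and barcodes carrying much stromal or podocyte RNA. The rule found 1283 of 36833 kept barcodes: 961 of 21188 in the control library and 322 of 15645 in the floxed library. Because measured levels chose these cells, their levels of the rule's own genes are a description and support nothing.

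Dissociated whole kidneys of newborn mice were profiled by droplet 3′ RNA sequencing. The control library came from the genotype Six2Cre and the other from the genotype Six2CreTet2/3f/f (named the floxed library), in which the same Cre is combined with loxP-flanked Tet2 and Tet3. Six2 is expressed in nephron progenitors, which give rise to nephron epithelium and not to endothelium, so the endothelial cells lie outside the lineage in which this Cre is known to act. Each genotype had 1 library, so no difference given here has a replicate check, no test across animals was possible, and genotype, animal and library preparation cannot be told apart. The 2 bisulfite samples of the series were not analysed here.

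Glomerular endothelial cells line the capillary tuft of the renal filter, where they share a basement membrane with podocytes and receive their VEGF-A. As they mature they flatten and their fenestrae lose the diaphragms built from PLVAP, while peritubular capillaries keep theirs. EHD3 is a membrane-shaping ATPase of endocytic recycling. In the mature kidney Ehd3, the transcription factor genes Gata5 and Tbx3, and Plat, which encodes tissue plasminogen activator, mark the glomerular tuft.

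The 8 endothelial genes were well represented in the members. Kdr, the main VEGF receptor gene, was detected in 84.1% of control and 79.5% of floxed members, Emcn, which encodes the glycocalyx protein endomucin, in 93.1% and 97.2%, and the junction gene Pecam1 in 82.2% and 77.0%. The data did not bear out the glomerular label for most of the cells. In control members Plat was at 28.1 CPM (UMIs of the gene for every 1000000 UMIs of the summed cells), against 27.7 CPM in the endothelial cells of the same library that met every other part of the rule but had no Ehd3 UMI, called other endothelium from here on. Gata5 was at 0.771 CPM in control members and 0.221 CPM in other endothelium, Tbx3 at 20.04 and 19.2 CPM, and Nostrin, which encodes a regulator of endothelial nitric oxide synthase trafficking, at 6.94 and 4.97 CPM. Plvap, the diaphragm gene that mature glomerular endothelium lacks, was at 758 CPM in control members and 488 CPM in other endothelium. Diaphragms are lost as the cells mature, so in newborn kidneys the level of Plvap does not decide the label. Control members with 1, 2 to 3, and 4 or more Ehd3 UMIs had 2 listed glomerular markers lower than other endothelium. Lpl was at 13.5, 21.2 and 7.07 CPM against 22.4 CPM, and Sema5a at 29.9, 14.9 and 12.6 CPM against 32.45 CPM. In floxed members some glomerular markers stood higher than in other endothelium. Plat was at 65.6 against 35.9 CPM, Gata5 at 7.40 against 0.725 CPM, and Nostrin at 28.1 against 7.25 CPM. Not all did, as Sost had 0 UMIs in floxed members and 0.869 CPM in other endothelium. The cells are therefore called Ehd3-positive endothelial cells, by the rule that chose them.

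The 2 libraries differed in depth and in how often markers of other cell classes were detected in the members. The control matrix held 25736 barcodes and 197745868 UMIs, the floxed matrix 22543 barcodes and 115427704 UMIs, both above the 10000 cells loaded per library. Members had a median of 6719 UMIs in the control and 4377 in the floxed library, and other endothelium 4700 and 3571. The member sums behind every CPM are 9081546 and 2027563 UMIs. The libraries shared 99 kept barcodes; 5 control members and 1 floxed member carry a barcode kept in the other library, and no barcode is a member in both. At least 3 of 8 markers of another cell class were detected in 520 of 961 control members (54.1%) and 237 of 322 floxed members (73.6%). Erythroid markers made up most of this in the floxed library (203 members, 63.0%, against 195, 20.3%, in the control), while early nephron markers were seen in 192 control (19.98%) and 42 floxed members (13.0%).

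Ehd3 itself was sparse. A single UMI admitted 584 of the 961 control members and 212 of the 322 floxed members, 277 and 63 had 2 or 3 UMIs, and 100 and 47 had 4 or more, with maxima of 19 and 38 UMIs in 1 cell. Just outside the threshold stood the 2387 control and 1403 floxed cells of other endothelium with 0 Ehd3 UMIs. The arterial limit placed 306 control and 141 floxed barcodes with 1 arterial gene inside and 73 and 26 with 2 outside. For Col3a1, 21 and 5 barcodes with 4 UMIs were inside and 20 and 8 with 5 were outside, and for Nphs1 15 and 2 barcodes with 1 UMI were inside and 6 and 1 with 2 were outside. For the endothelial genes, 50 and 17 barcodes with 3 were inside and 104 and 29 with 2 were outside.

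An Ehd3 UMI was also found in cells that are not endothelial. Among macrophage-like cells 2.17% of the control (1.13 to 3.76, exact 95% Clopper-Pearson interval) and 1.92% of the floxed library (0.881 to 3.61) had one, at median depths of 4148 and 3966 UMIs. In stroma-like cells the share was 10.3% (9.42 to 11.2) and 9.39% (8.44 to 10.4), at 5640.5 and 4582.5 UMIs. Arterial endothelium, with 2 or more arterial genes, reached 20.9% (17.5 to 24.7) and 18.1% (12.7 to 24.7). The summed level of Ehd3 was 4.21 and 4.37 CPM in macrophage-like cells and 17.1 and 18.3 CPM in stroma-like cells. The shares differ between these classes beyond counting error, and how much of the Ehd3 in members with a single UMI came from free RNA was not tested. Intervals here and in all that follows cover counting error only.

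**Figure D1:**
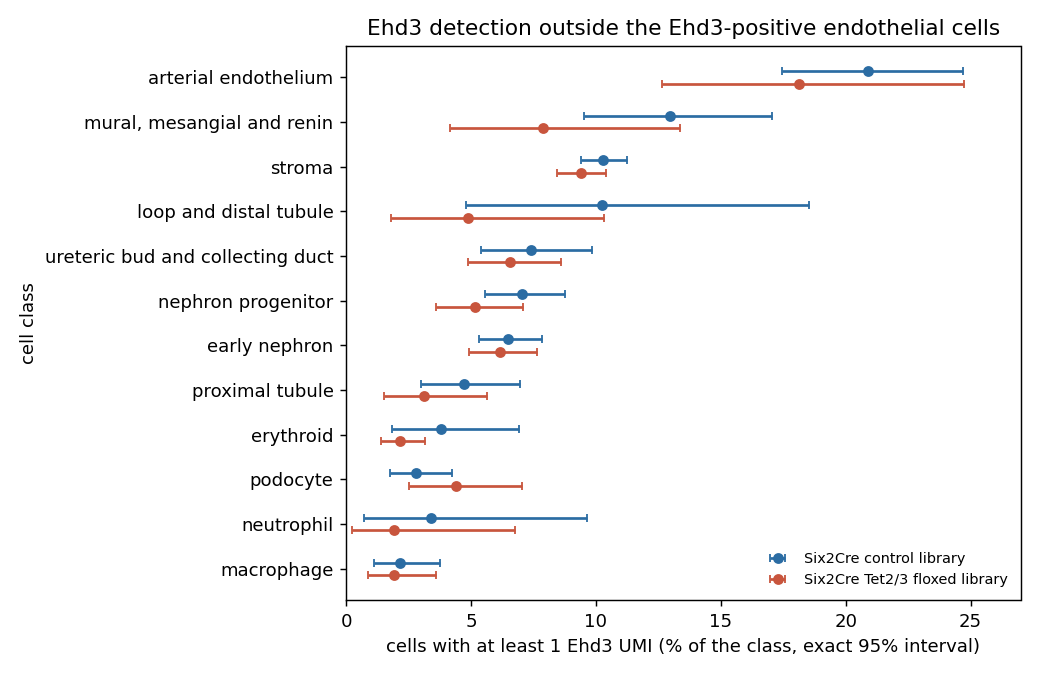
Share of cells with at least 1 Ehd3 UMI (percent, horizontal axis from 0) in arterial endothelium and 11 other cell classes of each library; points are the share and bars the exact 95% interval. Arterial endothelium lies highest, at 20.9% in the control and 18.1% in the floxed library, and macrophage-like cells lie at 2.17% and 1.92%.

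The members made up 4.54% (4.26 to 4.82) of kept barcodes in the control and 2.06% (1.84 to 2.29) in the floxed library, and 24.9% (23.5 to 26.3) and 17.0% (15.3 to 18.8) of all endothelial barcodes. Since finding 1 UMI depends on depth, every barcode was also thinned to 2000 UMIs, leaving out 2114 control and 1977 floxed barcodes that were shallower. The shares were then 2.24% (2.03 to 2.46) and 1.30% (1.11 to 1.499) of kept barcodes, and 14.3% (13.0 to 15.6) and 12.0% (10.4 to 13.8) of endothelial barcodes. The thinned share among endothelial cells, floxed over control, was at a ratio of 0.843 (0.715 to 0.992, log-scale interval for a ratio of proportions). The interval that takes both numbers as Poisson was 0.703 to 1.006, so whether the upper bound lies under 1 depends on the interval used. In thinned barcodes with no endothelial gene, Ehd3 was seen in 2.14% in both libraries.

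The members differed among themselves by how much Ehd3 they carried, and the pattern was not the same in the 2 libraries. Among control cells with 0, 1, 2 to 3, and 4 or more Ehd3 UMIs, Plat was at 27.7, 26.2, 30.5 and 30.65 CPM, which is within its counting error (21.8 to 41.9 CPM in the last). Plvap was at 488, 653, 829 and 1031 CPM over the same cells and was detected in 97 of the 100 with 4 or more. Other endothelial genes were higher in the same cells, with Kdr at 554 CPM against 229 CPM at 0 Ehd3 UMIs, Flt1 at 370 against 190 CPM and Emcn at 794 against 405 CPM, so the order was not that of Plvap alone. Nostrin was at 4.97 (3.99 to 6.11), 5.67, 7.06 and 11.8 CPM (6.60 to 19.4), the last from 15 UMIs in 8 cells. Aplnr, the receptor gene for apelin and a marker of capillary and venous endothelium, was also higher in them, at 183 CPM (160 to 208) against 113.5 CPM (109 to 118.5) at 0 Ehd3 UMIs. Other markers of that endothelium did not all follow. Cd36 was higher, at 29.9 CPM (21.1 to 41.0) against 10.5 CPM (9.05 to 12.1). Igfbp5 was lower, at 145 CPM (124 to 167) against 196 CPM (190 to 203), and the intervals of Nr2f2 overlapped.

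In the floxed library the 47 cells with 4 or more Ehd3 UMIs differed from those with fewer in several glomerular markers. Plat was at 35.9, 31.4, 36.9 and 206 CPM (163 to 257 in the last) and was detected in 22 of the 47. Gata5 was at 0.725, 3.30, 4.62 and 23.5 CPM (10.7 to 44.6), the last from 9 UMIs in 7 cells. Tbx3 was at 22.6, 25.6, 23.1 and 80.9 CPM (54.9 to 115), and Nostrin at 7.25, 14.9, 30.0 and 67.8 CPM (44.3 to 99.4). Plvap went the other way, at 465, 546, 679 and 326 CPM (271 to 388), and was found in 27 of the 47 cells, and Aplnr stood at 99.1 CPM (70.1 to 136) in them against 215 CPM (204 to 226) at 0 Ehd3 UMIs. For the capillary and venous markers Igfbp5, Cd36 and Nr2f2 the intervals in the 47 cells overlapped those at 0 Ehd3 UMIs. Of the 11 glomerular markers other than Ehd3 and the broadly expressed Cyb5a, 5 had an interval in these 47 cells above that of the 100 control cells with as many Ehd3 UMIs: Plat, Gata5, Tbx3, Nostrin and Sema5a, at 52.2 CPM (31.9 to 80.6) against 12.6 CPM (7.19 to 20.4). The intervals of the other 6 overlapped. The share of all genes with such a gap between these cells was not computed, so the count of 5 is a description. Ehd3 itself was at 981 CPM in the 47 floxed and 458 CPM in the 100 control cells. Lpl and Sost had 0 UMIs in the 47 cells, Mapt was at 7.83 CPM against 7.07 CPM, Smad6 at 7.83 against 3.93 CPM, Pi16 at 10.4 against 3.93 CPM and Prdm1 at 26.1 against 9.43 CPM. Markers of other classes also differed between these cells. The summed erythroid markers were at 18323 CPM in the 47 floxed and 938 CPM in the 100 control cells, and the proximal tubule markers at 1774 and 409 CPM, while the podocyte markers were at 422.5 and 376 CPM, and their part in the levels above was not tested. At least 3 of the 11 markers were detected in 18 of the 47 floxed cells (38.3%, 24.5 to 53.6) and in 9 of the 100 control cells (9%, 4.20 to 16.4), against 28 of 1403 (2.00%) and 121 of 2387 (5.07%) of the cells with no Ehd3 UMI.

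**Figure D2:**
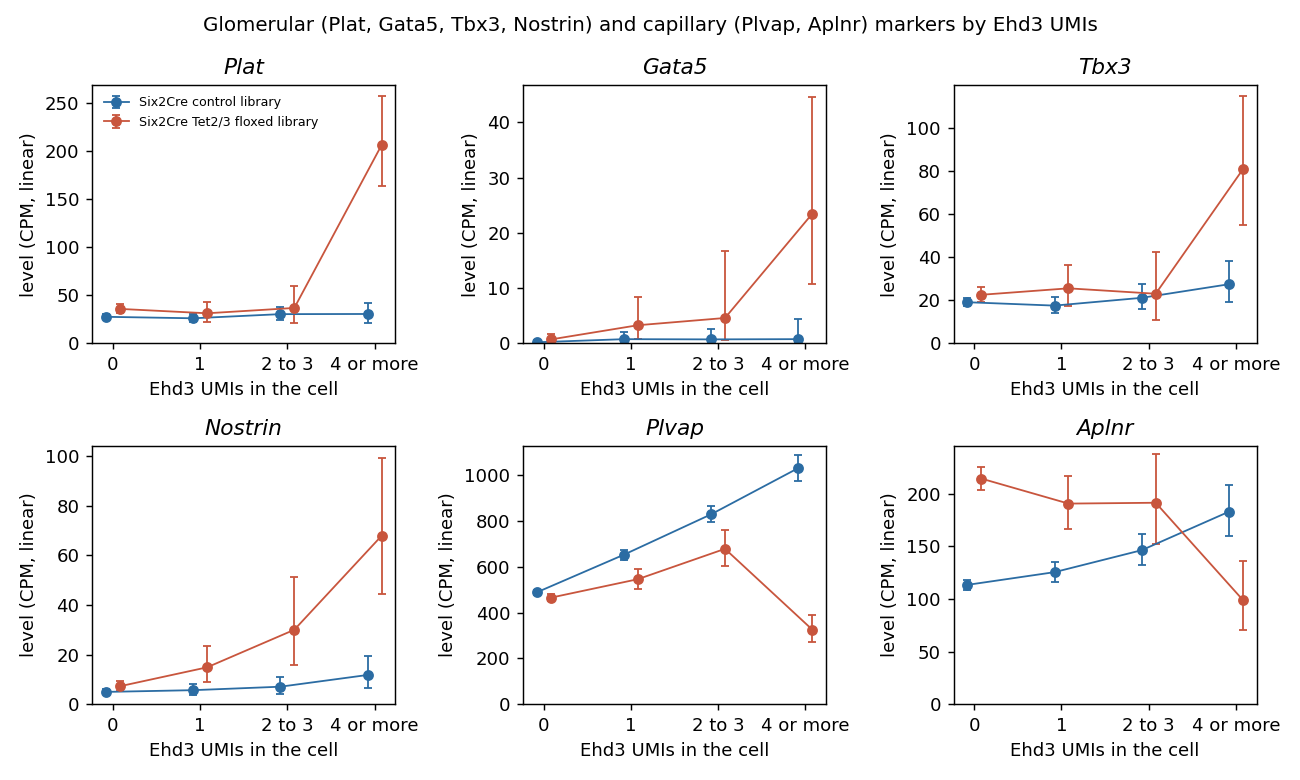
Level (CPM, linear axis from 0) of 4 glomerular markers (Plat, Gata5, Tbx3, Nostrin) and 2 capillary markers (Plvap, Aplnr) in endothelial cells grouped by their number of Ehd3 UMIs, with 95% Poisson intervals; each group is a sum over cells of 1 library. The floxed cells with 4 or more Ehd3 UMIs have Plat at 206 CPM and Plvap at 326 CPM, and the control cells with 4 or more have 30.65 and 1031 CPM.

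The imprinted Dlk1-Meg3 domain was part of the same pattern. Dlk1 encodes a membrane-bound Notch-like ligand expressed from the paternal allele, and Meg3 a noncoding RNA from the maternal allele. Dlk1 was at 1.59, 0.826, 23.1 and 480 CPM (413 to 554.5) in floxed cells with 0, 1, 2 to 3, and 4 or more Ehd3 UMIs. The highest value came from 184 UMIs in 12 of the 47 cells, 72 of them in 1 cell. Control cells with 4 or more had 18.9 CPM (12.1 to 28.1), from 24 UMIs in 2 cells. Meg3 stood at 193 CPM (152 to 242) in the floxed cells with 4 or more Ehd3 UMIs, in 17 of 47 cells, and at 9.43 CPM (4.87 to 16.5) in the control cells. The 42 control barcodes with as many Ehd3 UMIs that the rule left out had Meg3 at 163 CPM (138.5 to 191). The gap in Meg3 thus depends on which control cells the rule took. Rtl1, a retrotransposon-derived gene of the same domain, gave 18 UMIs in 6 of the 47 floxed cells and 0 UMIs in the 100 control cells. In the RefSeq annotation of GRCm38.p6, Dlk1 lies at chr12:109452485-109463336, Meg3 at chr12:109540996-109571729 and Rtl1 at chr12:109564900-109604418, and the last 2 spans overlap, so their reads are uncertain. Dkk2, which encodes a secreted Wnt inhibitor, was found in 16 of the 47 floxed cells at 86.1 CPM (59.25 to 121) and in 2 of the 100 control cells at 2.36 CPM (0.486 to 6.89). It was also found in 16 of the 42 control barcodes left out, at 55.8 CPM (41.8 to 73.0). The gap in Dkk2 thus also depends on which control cells the rule took. Dlk1, Meg3, Rtl1 and Dkk2 were singled out in these cells after their values were seen.

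The same number of UMIs means different things at different depths, and the control cells with 4 or more Ehd3 UMIs were deeper, at a median of 11268 UMIs against 6354. Among them, 52 control and 41 floxed cells also had Ehd3 at 500 CPM or more within the cell, a limit set after the data were seen. In these Plat was at 46.3 CPM (28.6 to 70.7) for the control and 244 CPM (189 to 309) for the floxed library, Plvap at 1216 CPM (1117 to 1322) and 345 CPM (279 to 422), and Dlk1 at 52.9 and 625 CPM. Plvap was present in 49 of 52 cells and 23 of 41 cells. The minimum was the same for both libraries but the level of Ehd3 above it was not, at 767 CPM (688 to 852) in the 52 control and 1240 CPM (1112 to 1379) in the 41 floxed cells.

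The 47 floxed cells were not uniform. The 18 that carried at least 3 of the 11 glomerular markers had Plvap at 75.5 CPM (40.2 to 129) in 5 cells, and the other 29 had 530 CPM (437 to 638) in 22 cells. Aplnr was at 11.6 CPM (1.41 to 42.0) in the 18 cells and 170.5 CPM (119 to 236) in the 29. Rsad2, an interferon-induced antiviral gene, was at 11.6 CPM (1.41 to 42.0) and 294 CPM (225 to 376), and Dlk1 at 999 CPM (855 to 1160) in 10 of the 18 cells and 56.8 CPM (29.4 to 99.2) in 2 of the 29. Plvap and Aplnr were thus low in the cells with glomerular markers and high in the rest. Other capillary markers were not compared between these cells. The 9 control cells with at least 3 of these markers had Plvap in 8 and at 724 CPM (599 to 868). Their median depth was 14916 UMIs against 6926 in the 18 floxed cells, so detection is not matched between them. These sets were drawn by marker after the data were seen and are a description.

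The rule also left out cells rich in Ehd3. Of barcodes with at least 3 endothelial genes and 4 or more Ehd3 UMIs, 42 in the control (29.6%) and 11 in the floxed library (19.0%) were not members, 29 and 7 of them for 2 or more arterial genes, 18 and 4 for Col3a1 and 6 and 0 for Nphs1, with overlaps. The 42 control barcodes had Gata5 at 16.8 CPM (9.63 to 27.4) in 9 cells, Dkk2 at 55.8 CPM (41.8 to 73.0) in 16 cells, Nostrin at 55.8 CPM (41.8 to 73.0) and Plat at 52.6 CPM (39.1 to 69.4). Meg3 was at 163 CPM (138.5 to 191) in 23 of these control barcodes and Dlk1 at 64.2 CPM (49.1 to 82.5) in 6. At least 3 of the 11 glomerular markers were found in 22 of the 42. Control barcodes that carry glomerular markers with Ehd3 thus lay partly outside the rule. Their intervals of Gata5, Dkk2 and Nostrin overlapped those of the 47 floxed members with 4 or more Ehd3 UMIs. Those of Plat and Dlk1 lay below. In the 11 floxed barcodes left out, Plat was at 120 CPM (74.35 to 184), Nostrin at 68.6 CPM (35.5 to 120) and Gata5 had 0 UMIs, and 7 of the 11 held at least 3 of the markers. The barcodes left out had a median of 18798 UMIs in the control and 11588 in the floxed library, and 19 of the 42 and 4 of the 11 were among the 8% with the highest doublet scores. Of the 100 control and 47 floxed members with 4 or more Ehd3 UMIs, 9 and 5 were among those scores. The part of doublets in these values was not tested.

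A rule of size was used to name genes: at least 25 CPM in the sum with the higher level and an exact 95% interval of the ratio wholly beyond 1.5-fold. Members were first set against other endothelium of their own library. The rule that chose the cells used this contrast, so the counts are printed as background and nothing is read from them. Of 5673 genes at 25 CPM or more in the control, 31 were higher in members (0.546%) and 20 lower (0.353%), and of 5585 in the floxed library 17 were higher (0.304%) and 5 lower (0.0895%). The 20 genes with the highest ratio in both libraries were led by Exoc3l2, which encodes a relative of an exocyst subunit, at 43.4 CPM in members and 19.8 CPM in other endothelium of the control and 46.4 and 22.6 CPM in the floxed library. Thbd, encoding the anticoagulant receptor thrombomodulin, was at 32.0 against 16.0 CPM and 27.1 against 15.1 CPM. Sgk1, a kinase gene induced by serum and corticosteroids, was at 251 against 126 CPM and 355 against 212 CPM. Plpp1, a lipid phosphatase gene, was at 422 against 244 CPM and 495 against 301 CPM.

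The remaining genes of that group of 20 were Hecw2, Cavin2, Chst2, Sult1a1, Car8, Chst15, Snrk, Tmem204, Myo1c, Plxna2, Ednrb, Cd200, Bvht, Grrp1, Ifi203 and Cyyr1. Cavin2 encodes a coat protein of caveolae, Ednrb the type B endothelin receptor, Plxna2 a semaphorin receptor, and Chst2 and Chst15 are sulfotransferase genes. Hecw2, a ubiquitin ligase gene, was at 31.3 CPM in control members and 57.2 CPM in floxed members, against 19.2 and 21.7 CPM in other endothelium. It was at 47.9 CPM (36.7 to 61.6) in the control cells with 4 or more Ehd3 UMIs and 141 CPM (106 to 184) in the floxed ones. Cavin2 had the opposite order between the libraries, at 272 CPM (244 to 302) for control and 125 CPM (92.3 to 166) for floxed cells with 4 or more Ehd3 UMIs.

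**Figure D3:**
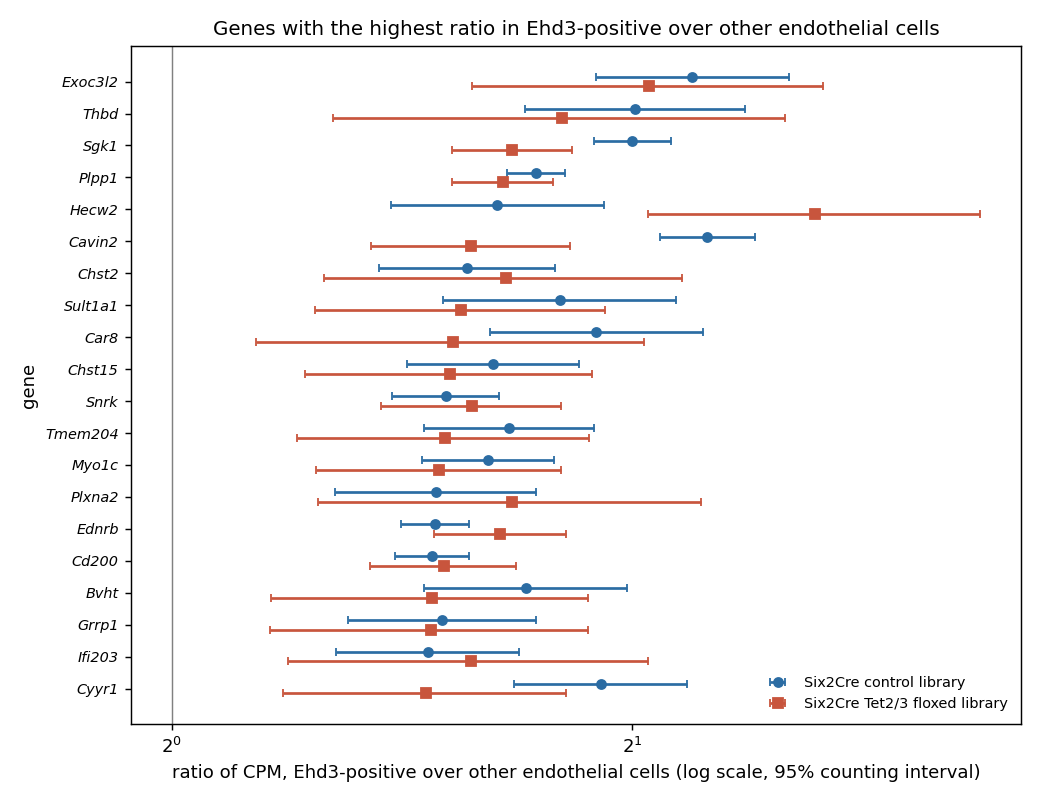
Ratio of CPM in Ehd3-positive over other endothelial cells (log axis) for the 20 genes with the highest ratio in both libraries, with exact 95% intervals; circles are the control and squares the floxed library. Exoc3l2 lies at 2.19 in the control and 2.05 in the floxed library, and Hecw2 is the gene with the widest gap, at 1.63 and 2.63.

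The genotypes were then compared within the members. The targeted genes come first. Tet2 was at 34.6 CPM in control and 23.2 CPM in floxed members, a ratio of 0.670 (0.483 to 0.913), Tet3 at 73.3 and 56.2 CPM, a ratio of 0.767 (0.623 to 0.937), and Tet1, which was not targeted, at 13.3 and 12.8 CPM. No TET gene passed the size rule. In other endothelium the ratio was 0.739 (0.620 to 0.877) for Tet2 and 0.633 (0.558 to 0.716) for Tet3. The 3′ tags need not fall in the floxed exons, and the members lie outside the Six2 lineage, so these levels check neither the deletion nor the labels. Of 6 measured genes among 8 for TET and DNA methylation enzymes, none passed in either direction, with a median log2 ratio of -0.32. Among them, Tdg, the glycosylase gene that acts after TET oxidation, was at 64.6 and 36.5 CPM.

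Of 5818 genes at 25 CPM or more in the members of either library, 84 were higher in the floxed library (1.44%) and 64 lower (1.10%), with a median log2 ratio of -0.04 over all genes. In other endothelium 133 of 5710 genes were higher (2.33%) and 158 lower (2.77%). Of the members' genes, 54 of the 84 and 41 of the 64 also passed the same way in other endothelium. Among the calls, 10 higher and 14 lower genes stood below 0.2 of their level in another cell class, where free RNA can set the level. The sums behind other endothelium are larger, and the counts of the 2 populations were not compared by a test.

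Of the 10 genes with the highest ratio, 4 differed from other endothelium by more than 1 on the log2 scale: Dlk1, Meg3, Nostrin and Adamts5. Dlk1 was at 3.41 CPM in control members and 96.2 CPM in floxed members, 28.2-fold higher (19.2 to 42.6). It came from 9 control and 16 floxed cells, with 36.9% of the floxed UMIs in 1 cell. In the control, 17 of the 24 UMIs in members with 4 or more Ehd3 UMIs came from 1 cell. Both levels thus rest on few cells. The ratio of Dlk1 in other endothelium was 0.760 (0.350 to 1.52). Meg3 was at 19.4 and 69.5 CPM, 3.59-fold higher (2.86 to 4.50), and at a ratio of 1.13 (0.940 to 1.35) in other endothelium. Nostrin was at 6.94 and 28.1 CPM, 4.05-fold higher (2.78 to 5.89), against 1.46 (1.01 to 2.08), and Adamts5, which encodes a proteoglycan-cleaving protease, at 22.4 and 66.6 CPM, 2.98-fold higher (2.38 to 3.72), against 1.24 (1.01 to 1.52). The log2 ratio in members minus that in other endothelium was 5.21 (4.10 to 6.32) for Dlk1, 1.67 (1.26 to 2.08) for Meg3, 1.47 (0.76 to 2.19) for Nostrin and 1.26 (0.84 to 1.69) for Adamts5. Each interval lies above 0, but the contrast of members with other endothelium is the one the rule used. The 10 genes were also picked for a high ratio in the members, which favours a positive difference. The share of all genes with such a difference is not given here. These differences, and all such differences given below, are therefore a description. Without the members with 4 or more Ehd3 UMIs, the log2 ratios of Dlk1, Nostrin and Meg3 in the members were 2.90, 1.62 and 0.96. None of the 3 passed the size rule. That rule also needs 25 CPM, so not passing it does not mean that a difference was absent. Adamts5 was at 20.5 CPM (16.8 to 24.8) in control and 42.9 CPM (32.1 to 56.3) in floxed members with 1 Ehd3 UMI. With 2 to 3 it was at 20.45 CPM (15.4 to 26.6) and 55.4 CPM (35.5 to 82.4). Among members with a single Ehd3 UMI the log2 ratio of Dlk1 was -0.51.

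Clic5 rose in both populations. It encodes a chloride channel family protein that links membrane to actin, and was at 22.6 CPM in control and 82.9 CPM in floxed members, 3.67-fold higher (2.98 to 4.52), and 2.75-fold higher (2.38 to 3.18) in other endothelium. Ocel1 was at 12.0 and 47.8 CPM, 3.99-fold higher (3.00 to 5.29), and Ctgf, a matricellular target gene of YAP, at 7.71 and 27.1 CPM, 3.52-fold higher (2.43 to 5.08). Sdf2l1, a chaperone gene of the endoplasmic reticulum, was at 9.36 and 28.6 CPM, 3.06-fold higher (2.15 to 4.32). Tpm3-rs7 at 7.05 and 118 CPM and Eif3j2 at 6.94 and 31.1 CPM completed the 10 genes with the highest ratio. Both have a near-identical copy in the genome, so their reads may be split between copies and the values are uncertain, and both also passed the rule in other endothelium.

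The 10 genes with the lowest ratio held 6 that interferon is known to induce. Gbp3, which encodes a guanylate-binding GTPase of cell-autonomous defence, was at 25.6 CPM in control members and 2.47 CPM in floxed members, 10.4-fold lower (4.38 to 32.2). Irf7, the transcription factor gene that amplifies type I interferon, was at 37.3 and 6.41 CPM, 5.82-fold lower (3.36 to 11.1), and Rtp4 at 60.1 and 13.8 CPM, 4.35-fold lower (2.98 to 6.61). Isg15, a ubiquitin-like modifier gene, was at 114.5 and 30.6 CPM, 3.75-fold lower (2.90 to 4.92), Rnf213 at 50.5 and 14.8 CPM, 3.42-fold lower (2.36 to 5.12), and Bst2, encoding the virus tether tetherin, at 395 and 120 CPM, 3.30-fold lower (2.90 to 3.77). Isg15 was detected in 478 of 961 control and 37 of 322 floxed members, and Bst2 in 846 and 158.

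The other 4 of those 10 were Snhg9, Cryab, Atp6v1g3 and Rnaset2b. Snhg9, a host gene of a small nucleolar RNA, was at 87.7 and 23.7 CPM, 3.70-fold lower (2.77 to 5.06), and at a ratio of 0.298 (0.256 to 0.347) in other endothelium. Cryab and Atp6v1g3 rested on few cells: 23.9% of the control UMIs of Cryab and 35.3% of those of Atp6v1g3 came from 1 cell. Cryab reversed without barcodes that held 3 or more markers of another class, at a log2 ratio of 1.36, and Atp6v1g3 after thinning, at 0.27. Rnaset2b, at 42.7 and 4.93 CPM, has a near-identical copy in the genome and is uncertain.

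**Figure D4:**
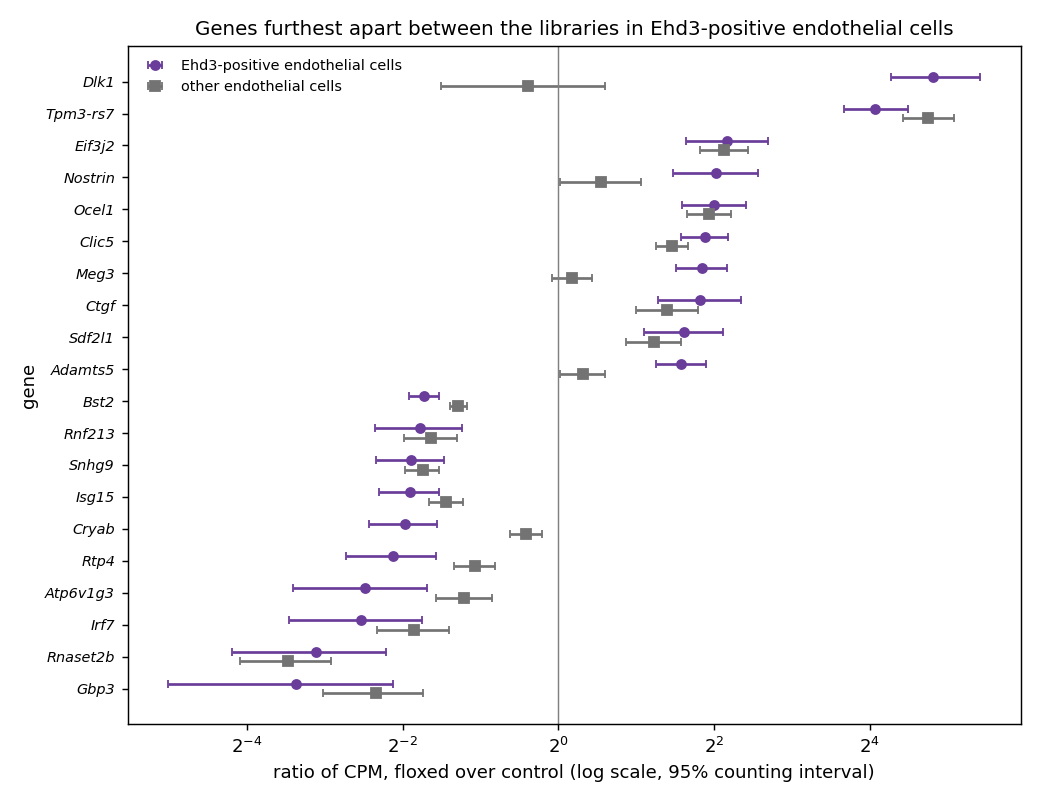
Ratio of CPM in the floxed over the control library (log axis) for the 10 genes with the highest and the 10 with the lowest ratio in Ehd3-positive endothelial cells (circles), beside the same ratio in other endothelial cells (squares), with exact 95% intervals. Dlk1, Nostrin, Meg3 and Adamts5 lie at 28.2, 4.05, 3.59 and 2.98 in the members and at 0.760, 1.46, 1.13 and 1.24 in the others.

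Among the lists that do not mark another cell class, genes induced by interferon had the median furthest from 0. Of 12 listed, 10 reached 25 CPM, 9 of them were lower in the floxed members and 0 higher, with a median log2 ratio of -1.44, against 1.10% of all genes called lower and a median of -0.04. Beside Isg15, Irf7 and Bst2, Ifit3 was at 36.6 CPM in control and 3.95 CPM in floxed members, Ifit1 at 27.2 and 11.8 CPM, Oasl2 at 33.5 and 11.8 CPM and Ifi44 at 93.8 and 36.0 CPM. Ifitm3, which encodes a membrane protein that blocks viral entry, was at 1493 and 804 CPM, 1.86-fold lower (1.76 to 1.956). Rsad2 was at 474 and 306 CPM, a ratio of 0.646 (0.593 to 0.703), and did not pass. All 10 were lower in the floxed members, 9 of them past the rule, but the minimum fixed the direction of several. Irf7, Ifit3, Ifit1 and Oasl2 were among those that reached 25 CPM in the control members only. Isg15, Bst2, Ifitm3, Ifi44 and Rsad2 reached it in the members of both libraries and were also lower. The direction was the same among members with a single Ehd3 UMI, where Isg15 was at 92.2 and 33.0 CPM, Bst2 at 349 and 120 CPM and Ifitm3 at 1306 and 782 CPM.

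Other endothelium showed the same direction, with 4 of 6 measured genes of the list lower, against 2.77% of all genes, and a median of -1.04. That median is over a smaller set of genes than in the members. For some genes the members differed more. The log2 ratio in members minus that in other endothelium was -0.40 (-0.48 to -0.31) for Ifitm3, -0.47 (-0.90 to -0.04) for Isg15, -0.44 (-0.65 to -0.22) for Bst2 and -0.56 (-0.70 to -0.42) for Rsad2. It was 1.65 (0.72 to 2.58) for Ifit1, which was less far apart in the members. For Oasl2 (-0.73 to 0.70) and Ifi44 (-0.63 to 0.18) the interval held 0. For Isg15 the difference was not particular to endothelium, since its ratio in stroma-like cells was 0.119. The other listed genes and other cell classes are not reported here. Without the barcodes with 3 or more markers of another class, which left 441 control and 85 floxed members, the log2 ratios of Isg15 and Ifit3 were -0.98 and -1.05 and no longer passed, while those of Bst2, Ifitm3 and Irf7 still did.

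**Figure D5:**
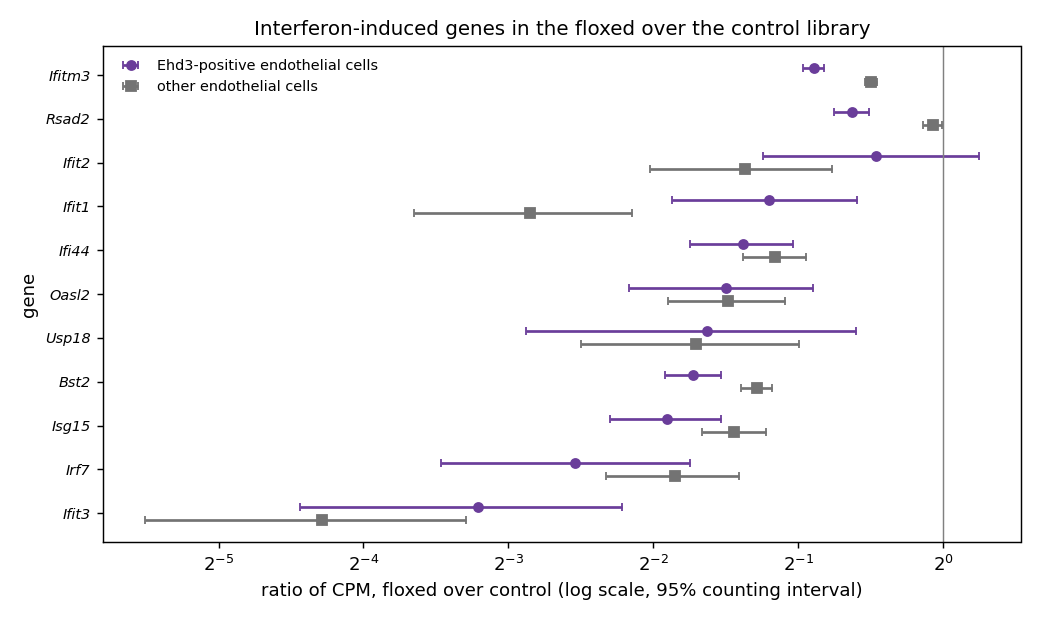
Ratio of CPM in the floxed over the control library (log axis) for 11 of the 12 listed interferon-induced genes in Ehd3-positive (circles) and other endothelial cells (squares), with exact 95% intervals. Every point lies below 1; Ifitm3, Isg15, Bst2 and Rsad2 lie lower in the Ehd3-positive cells, and Ifit1 lies lower in the other cells.

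Interferon acts on these genes through the interferon-stimulated response element, a promoter motif bound by IRF factors. Its core was searched as GAAA, any 2 bases and GAAA again, on both strands and with overlapping matches counted, in the 300 bases from 250 before to 50 after each gene's start in RefSeq promoters of GRCm38.p6. It was present in 1131 of 32851 windows (3.44%) and for 1079 of 27025 genes (3.99%). Of the 12 listed genes, 10 matched an entry, and 6 of them held the core: Isg15, Ifit1, Ifit3, Ifitm3, Bst2 and Rsad2. The windows of 3 genes that were lower in floxed members and hold the core before their start are shown as examples. They are written 5′ to 3′ on the strand of the gene, with bases of a match in capitals. Isg15 (chr4:156200769-156201068, minus strand) has 3 overlapping matches, the first 78 bases before the start, and Ifit1 (chr19:34640639-34640938, plus strand) and Ifit3 (chr19:34583279-34583578, plus strand) have 2 each, the first 104 and 156 bases before the start, which lie on the other strand and so read TTTC, 2 bases and TTTC. A match is a description of the letters and not a bound site.
Isg15: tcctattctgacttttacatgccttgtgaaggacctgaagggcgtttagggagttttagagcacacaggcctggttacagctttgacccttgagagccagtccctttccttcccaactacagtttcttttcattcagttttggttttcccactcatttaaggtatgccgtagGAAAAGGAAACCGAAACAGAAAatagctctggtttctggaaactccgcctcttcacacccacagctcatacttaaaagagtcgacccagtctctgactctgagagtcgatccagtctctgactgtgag
Ifit1: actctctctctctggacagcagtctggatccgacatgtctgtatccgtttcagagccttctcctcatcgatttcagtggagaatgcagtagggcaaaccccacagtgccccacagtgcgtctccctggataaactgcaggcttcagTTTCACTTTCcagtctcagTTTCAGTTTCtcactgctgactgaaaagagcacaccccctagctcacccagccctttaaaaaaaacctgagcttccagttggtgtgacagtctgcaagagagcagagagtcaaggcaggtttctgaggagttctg
Ifit3: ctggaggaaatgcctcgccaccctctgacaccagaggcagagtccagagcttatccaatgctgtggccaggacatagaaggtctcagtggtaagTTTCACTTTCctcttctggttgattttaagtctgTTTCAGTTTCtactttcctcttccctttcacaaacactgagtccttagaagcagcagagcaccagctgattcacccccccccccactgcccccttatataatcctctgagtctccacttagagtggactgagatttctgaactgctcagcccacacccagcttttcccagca

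The other lists were followed in the order of their roles, and the share to read their counts against is the 1.44% of all genes called higher and the 1.10% called lower. Most of these lists hold 1 or 2 calls among few measured genes, and nothing particular to a list is read from them. Among VEGF receptors and co-receptors, 1 of 6 measured genes was higher in floxed members and 0 lower, with a median of 0.05. It was Nrp1, the co-receptor gene, at 119 and 222 CPM, 1.87-fold higher (1.67 to 2.09). Kdr was at 349 and 384 CPM and Flt1, which encodes a decoy receptor, at 273 and 259 CPM. None of the 3 measured genes of the angiopoietin receptors passed. Tek was at 236 CPM in control and 162 CPM in floxed members, a ratio of 0.686 (0.609 to 0.771), Tie1 at 181 and 135 CPM, a ratio of 0.743 (0.651 to 0.845), and Ptprb, the phosphatase gene that restrains them, at 159 and 122 CPM, a ratio of 0.766 (0.667 to 0.877). In other endothelium the 3 ratios were 1.05 (0.972 to 1.12), 1.11 (1.03 to 1.19) and 1.11 (1.01 to 1.21), and the log2 differences were -0.61 (-0.80 to -0.41), -0.58 (-0.79 to -0.37) and -0.53 (-0.77 to -0.30). Tie1 is one of the 8 endothelial genes of the rule, so its value is a description. For Tek and Ptprb the interval of the difference lies below 0, though neither reached the size rule within the members.

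Of the 8 measured genes for BMP and TGF-beta receptors and response, and of the 5 for Notch, none passed in either direction, with medians of 0.00 and -0.31. Of 17 measured endothelial transcription factor genes, 1 was higher. It was Sox17, at 54.1 and 111 CPM, 2.05-fold higher (1.75 to 2.41), and it is also one of the arterial genes of the rule, so its level in the members is limited by how they were chosen. Among 5 flow-response genes none passed, and Klf2, which shear stress induces, was at 304 and 477 CPM, a ratio of 1.57 (1.46 to 1.69). Of the EHD family, Ehd3 was at 199 and 361.5 CPM, which the rule fixed in part. Ehd4, a close relative, was at 303 and 218 CPM, Ehd1 at 47.5 and 37.5 CPM and Ehd2 at 60.2 and 67.1 CPM, none of them past the rule.

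For the surface of the capillary wall, Emcn was at 573 CPM in control and 976 CPM in floxed members, 1.70-fold higher (1.62 to 1.79), and was the 1 gene of 8 measured for fenestrae, caveolae and glycocalyx to pass. It is also one of the endothelial genes of the rule, so its level is a description. Plvap was at 758 and 533 CPM, a ratio of 0.703 (0.658 to 0.749) that did not pass. For lipid and nutrient transport 2 of 5 were higher: Gpihbp1, which anchors lipoprotein lipase in capillaries, at 344 and 610 CPM, 1.77-fold higher (1.66 to 1.89), and Cd36, a fatty acid receptor gene, at 17.4 and 43.4 CPM, 2.50-fold higher (1.90 to 3.26). Fabp4, the fatty acid chaperone gene, was at 3821 and 5613 CPM, a ratio of 1.47 (1.44 to 1.5) that did not pass. Emcn, Gpihbp1 and Cd36 were also higher in other endothelium. Without the members with 4 or more Ehd3 UMIs, the log2 ratios of Emcn, Gpihbp1 and Nrp1 were 0.66, 0.66 and 0.63 and these 3 no longer passed.

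Of 6 measured glomerular markers, 3 were higher in floxed members and 0 lower, but 1 of the 3 is Ehd3, which chose the cells. The list's median of 0.85 includes Ehd3 and is not set against other endothelium, where only 3 of the markers were measured. Gata5 was under the minimum of 25 CPM, and Tbx3, at 20.04 and 35.5 CPM, did not pass. The 3 were Ehd3, Nostrin and Plat, the last 2.34-fold higher (1.88 to 2.89), and without the members with 4 or more Ehd3 UMIs the log2 ratios of Ehd3 and Plat were 0.47 and 0.25 and neither passed. Of 7 capillary and venous markers 2 were higher and 1 lower: Cd36, Rgcc, a cell cycle regulator gene, at 97.9 and 189 CPM, and Igfbp5, which encodes an insulin-like growth factor binding protein, at 162 and 85.8 CPM. Among secreted signals Pdgfb, which recruits mural cells, was at 40.4 and 85.3 CPM, 2.11-fold higher (1.75 to 2.54). Of 8 junction genes the adhesion gene Icam2 was higher, at 198 and 332 CPM, 1.68-fold (1.54 to 1.84). None of the 11 basement membrane genes passed, and Col4a1, a type IV collagen gene, was at 809 and 858 CPM. Of 12 stress and immediate early genes, Ier3 was higher, at 54.1 and 110.5 CPM, with a median of -0.17 for the list, and of 4 MHC class I and 6 hypoxia and glycolysis genes none passed, with medians of -0.12 and -0.20.

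Markers of other cell classes moved with genotype in the members. The summed level of 8 erythroid markers was 1611 CPM in control and 10970 CPM in floxed members, with 4 of 4 measured markers higher and 1 of the 8 at 0 in each library, and 3473 and 12183 CPM in other endothelium. The sums were 1076 and 844 CPM for 8 proximal tubule markers and 381 and 452 CPM for 8 podocyte markers. Haemoglobin genes were left in the totals behind CPM; with mitochondrial, ribosomal and haemoglobin genes out of the totals, 102 genes were higher and 87 lower. The part of this RNA in the other differences was not tested.

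Mitosis genes were detected in fewer of the floxed members. After thinning to 2000 UMIs, at least 3 of 19 mitosis genes were detected in 307 of 930 control members (33.0%, 30.0 to 36.1) and 70 of 304 floxed members (23.03%, 18.4 to 28.2), and without thinning the shares were 55.4% and 32.9%. Other endothelium gave 30.1% (28.2 to 32.1) and 22.97% (20.7 to 25.4), so that the share was lower in the floxed library in both populations. Arterial endothelium gave 17.3% (14.04 to 20.9) and 12.3% (7.71 to 18.4). None of 17 measured mitosis genes passed the size rule, 1 of them had a positive log2 ratio and their median was -0.44, against -0.01 over 16 measured in other endothelium. Top2a, the topoisomerase gene of dividing cells, was at 361 and 232 CPM and Mki67 at 215 and 185 CPM, with log2 differences from other endothelium of -0.39 (-0.55 to -0.23) and -0.25 (-0.44 to -0.07). Cells with 4 or more Ehd3 UMIs gave 39% (29.4 to 49.3) of 100 and 21.7% (10.95 to 36.4) of 46. Of 17 S phase genes none passed, with a median of -0.03, and a cycling share read from detected genes also reads free RNA, whose part was not tested.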

How the data were processed

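The authors deposited a matrix of raw UMI counts per gene and barcode for each library. Cell Ranger 6.0.2 and the build mm10 are named per the submitters' processing notes, while version 6.0.1 is the one recorded per the file headers. Which gene annotation and strand setting were used is not given in the sources used here. Barcodes with at least 1000 UMIs, 500 genes and under 15% mitochondrial UMIs were kept. The members and gene lists were chosen with earlier results of these data known. Scrublet (scanpy 1.11.5) marked 0 barcodes automatically in both libraries and so had not worked; doublets were left in, as the rule has no step for them, and the 8% highest scores were removed as an alternative.

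Counts were summed over the cells of a population and library and divided by the sum (CPM). Ratios have exact conditional binomial, levels Poisson and shares Clopper-Pearson 95% intervals. Cells are not replicates, so no p-value is given. The interval of a log2 difference between members and other endothelium is approximate. The difference holds the contrast that the cell rule used and is a description. Other cell classes needed 4 of 8 fixed markers, a scoring rule set after the data were seen, and under 2 endothelial genes. Named genes are the TET genes, the genes of the cell rule and the fixed lists, the 20 highest ratios over other endothelium with 25 CPM in both libraries, and the 10 highest and 10 lowest genotype ratios past the size rule, without mitochondrial, ribosomal, haemoglobin, sex-linked and predicted genes and those under 0.2 of their level in another class. Alternatives changed the cell rule, the filters, the scaling (TMM from edgeR 4.0.16 in R 4.3.3, median of ratios), the minimum and the fold. The size rule was tested on simulated counts. Values of some listed genes are not reported here. The software was Python 3.11.15 with scipy 1.17.1, pandas 2.3.3 (on numpy 2.4.6) and, for plots, matplotlib 3.10.9. Gene positions, matched by symbol for 73 of 74 genes looked up, and promoters came from RefSeq tables of GRCm38.p6, of the same build as mm10.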

Additional observations from a re-analysis of the deposited data

How the results depend on the processing

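The log2 ratio of the members' share of kept barcodes, floxed over control, was -1.14 (-1.33 to -0.96). It was -1.34 with at least 2 Ehd3 UMIs (1.78% and 0.703%), -1.42 with no arterial gene allowed (3.09% and 1.16%), -1.94 without barcodes with 3 or more markers of another class (2.08% and 0.543%) and -0.79 after thinning. For the -1.94, barcodes with other markers were taken out of the members but stayed among the kept barcodes. The counts of 84 genes higher and 64 lower were 124 and 106 at a minimum of 10 CPM, 38 and 20 at 100 CPM, 216 and 137 with no minimum and 30 and 25 with intervals beyond 2-fold. Without barcodes with 3 or more markers of another class they were 71 and 38, with 40 and 16 genes shared. Under the other settings run they lay between 61 and 112 higher and 44 and 87 lower. The log2 ratio of the cycling share was -0.52 (-0.92 to -0.14), and -0.45 and -0.75 with 2 mitosis genes and with no thinning. Over 15 settings and the 35 named genes past the size rule, 524 ratios were recomputed. Of these, 450 stayed past it or, with each cell weighted equally, kept their direction. That setting gave no interval, so the size rule was not applied under it. The rule was no longer passed by 71 ratios of 24 genes, and 3 reversed: Cryab at 1.36 without barcodes with other markers, Atp6v1g3 at 0.27 after thinning, and Dlk1 at -0.51 among members with 1 Ehd3 UMI. Rsad2 passed with at least 2 Ehd3 UMIs (-1.21) and after thinning (-1.09). Of 315 recomputed list medians, 100 moved by over 0.1 or changed sign. The settings with 1 Ehd3 UMI only and without cells with 4 or more were added after the data were seen. No paired analysis was possible because each genotype had 1 library. Depth limits rare markers: Gata5 rests on 9 UMIs in the floxed cells with 4 or more Ehd3 UMIs.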
